A study of Mus musculus with 3 samples.

Results

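The cells described here are 415 cells of the ENR+CD organoid library that held few defensin transcripts. They were selected on measured values. A kept cell had at least 1000 and fewer than 8000 unique molecular identifiers (UMIs, each standing for 1 captured transcript) and 400 or more genes, and a low-defensin cell had genes with symbols starting Defa below 3% of its UMIs and Chga plus Chgb below 1%. The 415 cells were 17.4% of the 2383 kept ENR+CD cells (95% Clopper-Pearson interval 15.9 to 19.0%) and belonged to a series of 5913 kept cells in 3 libraries.

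Organoids were grown from proximal small intestine of C57BL/6 mice aged 3 to 6 months, from 1 donor, and sampled on day 6 of differentiation from 6 wells per condition by Seq-Well, a nanowell method for single-cell RNA sequencing. The medium ENR, named after EGF (50 ng/mL), Noggin (100 ng/mL) and R-spondin 1 (500 ng/mL), was the base of all 3 conditions. For ENR+CD it was supplemented with 3 µM CHIR99021, which inhibits GSK3 and so turns on Wnt signalling, plus 10 µM DAPT, which stops gamma-secretase from cleaving Notch receptors. ENR+CV added CHIR99021 at 3 µM and valproic acid at 1 mM, and cells had been expanded in ENR+CV before they were moved to the other media. Each condition was 1 library, so media and arrays cannot be told apart, no test was possible, and every interval below covers counting error only. The ENR+CD cells of the merged table had identical counts, in 2506 of 2506 cells, in a per-library table that is filed under the ENR+CV sample. Cells were assigned here by their merged names. Of the kept ENR+CD barcodes, 1 also occurred in the ENR table and 0 in the ENR+CV table, and the shared one was not a low-defensin cell.

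Paneth cells sit at the base of intestinal crypts, store alpha-defensins and lysozyme in granules and supply Wnt and Notch signals to neighbouring stem cells. High Wnt and low Notch activity favour the Paneth and other secretory fates, through factors such as Atoh1. Notum, one of the genes used to mark the low-defensin cells, encodes a secreted enzyme that removes the lipid from Wnt proteins and is itself induced by Wnt signalling.

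The Defa share was continuous across the limit. The low-defensin cells had a median Defa share of 0.714% (quartiles 0.291 and 1.74%), against 12.02% in the other 1968 ENR+CD cells. Among ENR+CD cells with Chga plus Chgb below 1%, 73 cells just inside the limit had a Defa share of 2 to 3%, and 82 just outside it had 3 to 4%. Under the same limits 70.8% of the kept ENR cells (1803 of 2545) and 98.1% of the kept ENR+CV cells (966 of 985) would be chosen.

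**Figure D1:**
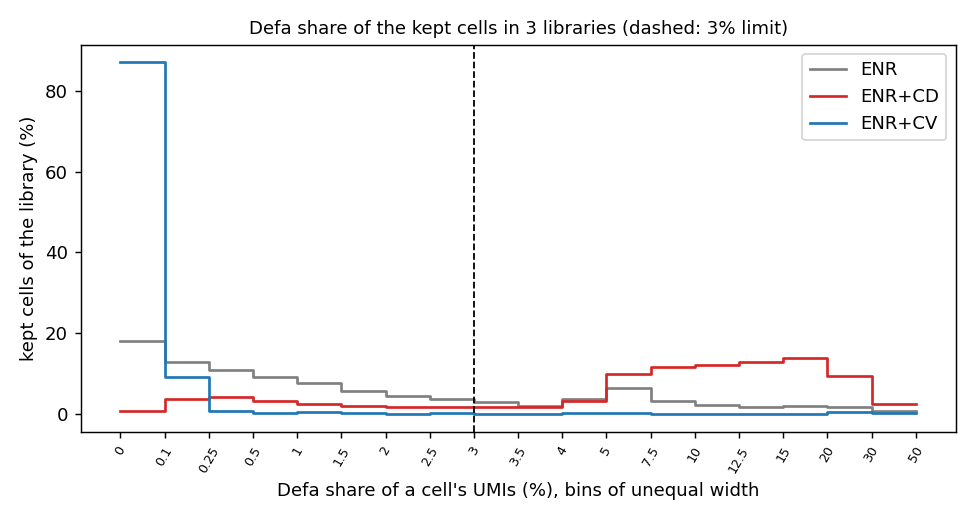
Percent of the kept cells of each library (vertical axis) in bins of the Defa share of a cell's UMIs (horizontal axis, bins of unequal width), with the 3% limit dashed. ENR+CD cells lie mostly above 5%, and 415 of 2383 met both limits.

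The low-defensin cells were deeper than their neighbours in the same library. Their median was 1758 UMIs and 980 genes, against 1512.5 UMIs and 733 genes in the other ENR+CD cells. Their median mitochondrial share was 8.66% against 6.98%, and their median share of ribosomal protein genes 10.7% against 7.94%. They made up 45.9% of the ENR+CD cells with 4000 or more UMIs (61 of 133) but 15% of those with fewer than 2000 (252 of 1680). The part of depth, mitochondrial share and doublets in the differences below was not tested.

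Of the 4 genes given as markers, Notum and Ccl2 passed the rule for a difference within ENR+CD, and Ifitm1 and Clu were higher by less than 2-fold. The rule asked for a ratio of at least 2, separate 95% Poisson intervals and at least 20 UMIs over both groups. Levels are given in CPM, the UMIs of a gene scaled to a fixed total of UMIs outside Defa genes, Chga and Chgb. Across 10831 genes with enough UMIs the median ratio of low-defensin to other ENR+CD cells was 1.14 (0.18 on the log2 scale), and single ratios should be read against that shift.

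Notum (chromosome 11, 120653788 to 120661175, mm10) stood at 132 CPM in the low-defensin cells and 65.7 CPM in the other ENR+CD cells, a ratio of 2.003 (1.59 to 2.52). It was at 0.814 CPM in ENR cells and 2.42 CPM in ENR+CV cells under the same limits. The 125 Notum UMIs came from 54 of 415 cells, and 1 cell held 21 of them. Without that cell the ratio was 1.67, below the limit of the rule. Notum stood at 530 CPM in the 60 cells of cluster 5, described below. In the other low-defensin cells it stood at 43.7 CPM, below the 65.7 CPM of the other ENR+CD cells. Cluster 5 was formed from the same expression values, so this split is description. After thinning every cell to 500 UMIs, 5.30% of the low-defensin cells had a Notum UMI (3.35 to 7.92%) against 2.90% of the other ENR+CD cells (2.20 to 3.74%), and 0.0555% of ENR cells. Unthinned, the shares were 13.0% and 8.18%.

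Ccl2, a chemokine that attracts monocytes, stood at 78.9 CPM against 17.1 CPM, a ratio of 4.60 (3.20 to 6.67). Its 75 UMIs came from 18 cells, the highest with 23, and the ratio was 3.19 without that cell. No Ccl2 UMI was found in ENR or ENR+CV cells under the same limits. With a floor of 3 UMIs set for each group, the low-defensin level was 97.0 times the ENR floor and 76.1 times the ENR+CV floor. These are not lower bounds. The lower limits of the exact intervals for the ratio were 76.95 over ENR and 60.4 over ENR+CV. The Ccl2 count was carried by few cells in the low-defensin group itself.

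Ifitm1, an interferon-inducible membrane protein, was the most abundant of the 4 markers. It stood at 1372 CPM in the low-defensin cells and 813 CPM in the others (ratio 1.69, 1.58 to 1.81), with 260 CPM in ENR+CV and 5.43 CPM in ENR cells under the same limits. The family members Ifitm2 and Ifitm3 had ratios of 1.51 and 1.55. Clu, which encodes the secreted chaperone clusterin, stood at 848 CPM against 635 CPM (ratio 1.33, 1.23 to 1.45), and at 13.6 CPM in ENR and 3.11 CPM in ENR+CV cells. Thinned shares of cells with a Clu UMI overlapped, at 26.0% (21.9 to 30.5%) and 24.6% (22.8 to 26.6%). All 4 markers were seen in 4 of the 415 cells and none in 86.

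**Figure D2:**
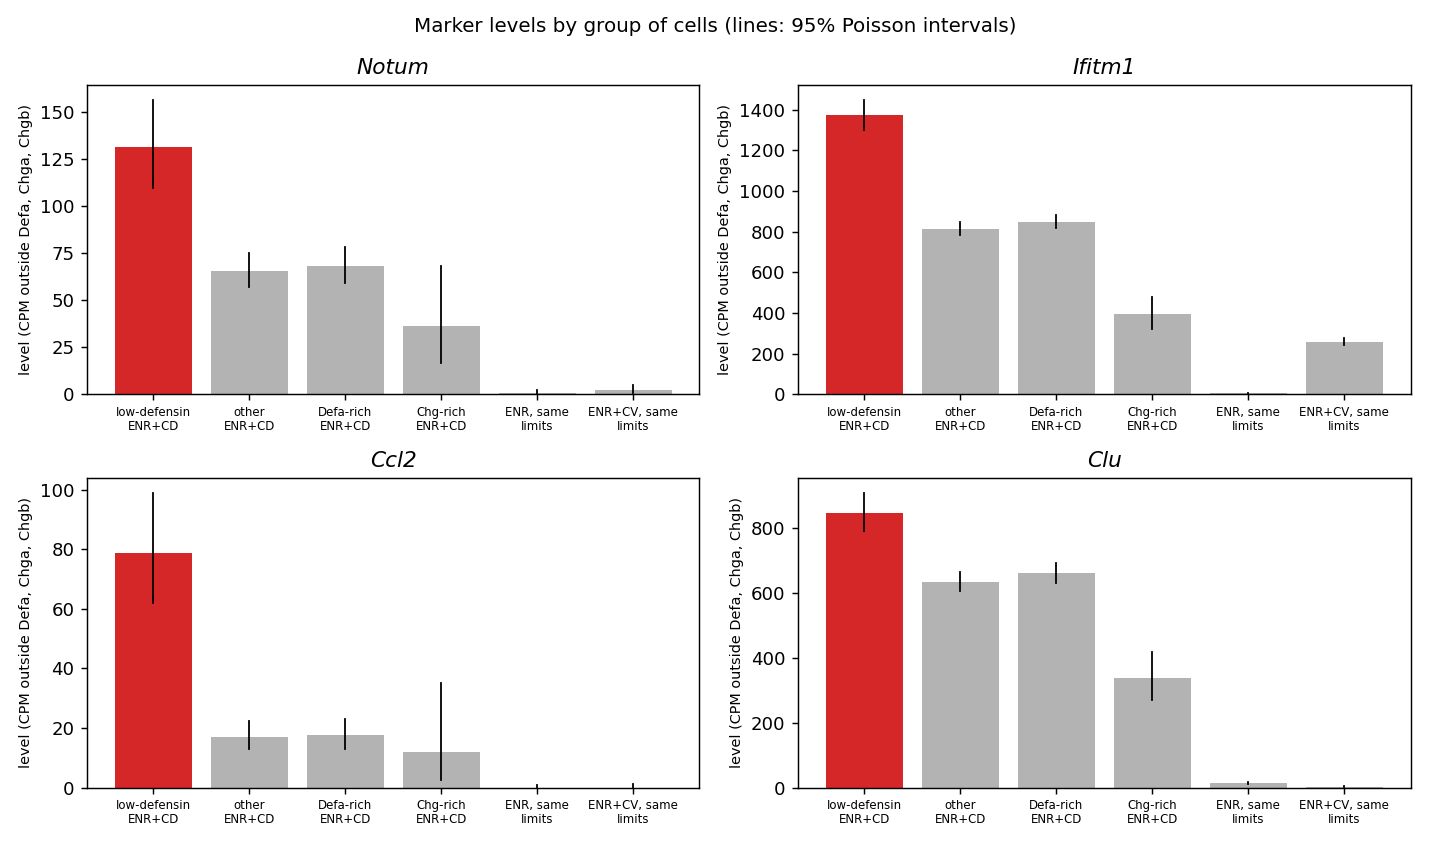
Level of each marker in CPM (vertical axes) in 6 groups of cells (horizontal axes); bars are pooled levels and lines 95% Poisson intervals. Notum stood at 132 CPM in the low-defensin cells and 65.7 CPM in the other ENR+CD cells, and all 4 genes were lower in the ENR cells.

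Over all genes, 146 of 10831 were higher in the low-defensin cells (1.35%) and 155 were lower (1.43%). The balance moved with the genes kept in the totals. Counts of higher and lower genes were 363 and 119 with Defa genes, Chga and Chgb kept in, 204 and 127 without mitochondrial and ribosomal protein genes, 96 and 172 without the other Paneth and enteroendocrine genes, and 94 and 183 without the alpha-defensin genes under Gm and AY symbols described below. Higher genes mostly had UMIs in a small part of the group. The median was 23 of the 415 cells, 7 genes had a UMI in fewer than 10, and 3 had at least 50% of their UMIs in 1 cell. When the member cell with most UMIs of each gene was left out, 57 of the 146 still passed. The removal was made only on the low-defensin side, so it can only lower the count, and it acts on low counts near the 2-fold limit.

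The lower calls were led by secretory products. These belong to the lineages whose Defa genes, Chga and Chgb chose the cells, so they are given as description. Of 14 tested Paneth genes other than Defa, 11 were lower and none was higher, with a median log2 ratio of -2.34 against 0.18 over all genes. Lyz1, the Paneth lysozyme, stood at 1384 CPM against 20115 CPM (ratio 0.0688, 0.0651 to 0.0727). The lectin gene Itln1 had a ratio of 0.154, the ribonuclease gene Ang4 of 0.0820 and Nupr1, a stress-responsive transcriptional regulator, of 0.138. Mmp7, the protease that activates alpha-defensins, had a ratio closer to 1, at 2097 CPM against 5045 CPM (ratio 0.416).

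The Paneth list also held genes that were not lower. Reg3b, an antimicrobial lectin, stood at 1242 CPM against 738 CPM (ratio 1.68, 1.57 to 1.81), but 1 cell held 215 of its 1180 UMIs and the ratio was 1.38 without it and 1.15 in cells below 4000 UMIs. Reg3g had a ratio of 1.01 and Sox9, a transcription factor needed for Paneth cells, of 1.03.

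Some alpha-defensin genes were not covered by the selection. The merged table gave 13 genes with symbols starting Defa, and 13 further genes under Gm symbols were listed by RefSeq as synonyms of Defa genes. Of these with the related AY761184 and AY761185, 14 genes had enough UMIs and all 14 were lower. Gm15284, which RefSeq names Defa30, counted 172136 UMIs in the other ENR+CD cells and 3022 in the low-defensin cells (ratio 0.0571). The 15 genes took 0.381% of the UMIs of the low-defensin cells and 6.04% of those of the others. These near-identical copies may share reads, so their separate values are uncertain. If they counted towards the limit, 352 cells would be chosen.

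Goblet and enteroendocrine products were lower too. Of 12 goblet genes 7 were lower and 1 higher, with a median log2 ratio of -1.31. Over all genes 1.43% were lower and 1.35% higher. Spink4 is on both the goblet and the Paneth list. The summed goblet level also differed with the Defa share that chose the cells. Among ENR+CD cells with Chga plus Chgb below 1% it was 2543 CPM below 0.25% Defa and 34648 CPM at 20% or more. Tff3, a mucosal peptide, stood at 1851 CPM against 7433 CPM (ratio 0.249), and the main intestinal mucin gene Muc2 had a ratio of 0.328. Of 30 enteroendocrine genes 11 were lower and none higher (median log2 ratio -0.69), a list that shares the lineage of the Chga and Chgb used to choose the cells. The hormone genes Gip, Cck and Tac1 had ratios of 0.167, 0.298 and 0.300, whereas Gcg was at 0.618 and Ghrl, the ghrelin gene, at 1.34. 1 cell held 253 of the 717 Gcg UMIs and another 201 of the 616 Ghrl UMIs, and without the highest cell of each the ratios were 0.400 and 0.900. Ghrl was also at 0.718 in cells below 4000 UMIs.

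Regulators of the secretory fate were mostly low counts. Of 12 secretory fate transcription factors 5 were lower and none higher, against 1.43% lower and 1.35% higher over all genes. Such factors belong to the lineages whose Defa genes, Chga and Chgb chose the cells, so these calls are description. Atoh1, which specifies secretory cells, had 4 UMIs against 74 (ratio 0.176, 0.0467 to 0.469), Bhlha15 had 10 against 119 (ratio 0.273) and Spdef 16 against 110 (ratio 0.473). Sox4 had a ratio of 1.42. Of 11 Notch pathway genes 1 was higher, the receptor gene Notch1 with 33 UMIs against 40 (ratio 2.68, 1.64 to 4.36), and 1 was lower, the ligand gene Dll4 (ratio 0.428). Hes1, a Notch target, stood at 145 CPM against 92.9 CPM in the other ENR+CD cells, at 151 CPM in ENR and at 656 CPM in ENR+CV cells. Notch1, Dll4, Atoh1, Bhlha15, Spdef, Muc2, Ang4, Reg3g, Gm15284, Lgr5, Olfm4, Nkd1, Kitl, Cxcl10 and Ccl6 fell outside the naming rule and were chosen after their values were seen.

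Few stem cell, Wnt or cycling genes passed, as was true of all genes tested, of which 1.35% were higher and 1.43% lower. The counts of calls are therefore not a result about these lists. None of 16 intestinal stem cell genes passed in either direction, and 15 had a ratio above 1 (median log2 ratio 0.50), against 67.1% of all genes tested. Lgr5, which marks crypt stem cells, stood at 124 CPM against 85.1 CPM and Smoc2 at 525 CPM against 352 CPM. Olfm4, another stem cell gene, had 5 UMIs, all in 1 cell. Of 21 Wnt feedback and target genes only Notum was higher, and 1 was lower. Axin2 had a ratio of 1.34 and Nkd1 of 1.13. None of 29 proliferation genes passed, but 26 had a ratio above 1 (median log2 ratio 0.45), with Mki67 at 282 CPM against 169 CPM.

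None of 19 genes of regenerative and fetal epithelium passed, and all 19 had a ratio above 1, against the same 67.1% of all genes tested (median log2 ratio 0.63, the highest of the lists apart from those of the markers, with which it shares Clu, and of the 3 Ifitm genes). Anxa1 had a ratio of 1.81 and S100a6 of 1.33. Cluster 7, 21 cells described below, held 337 of the 1137 S100a6 UMIs and 62 of the 282 Anxa1 UMIs. The list was uneven over the clusters of low-defensin cells. It took 1.30% of the UMIs of cluster 7, 0.618% of cluster 3 and 0.0716% of cluster 8. Few cells thus carried part of these ratios. Among 13 chemokine and epithelial cytokine genes 3 were higher, Ccl2, Cxcl10 (22 UMIs against 23) and Il18 (35 against 49), and 2 were lower, Ccl6 and Ccl9. Of the lists of other cell types, 2 immune and 2 stromal genes had enough UMIs and none passed. Summed levels were 61.0 CPM against 42.1 CPM for immune genes and 123 CPM against 80.9 CPM for stroma and endothelium. Epcam, an epithelial surface protein, stood at 1550 CPM. None of 15 epithelial, 15 immediate early and dissociation stress, 8 interferon response, 6 tuft cell or 3 structural RNA genes tested passed, and no red blood cell gene had enough UMIs. Of 14 enterocyte genes 1 was higher, Apoa1, and 1 was lower. Of 19 genes of protein folding and stress in the endoplasmic reticulum, 9 niche factor genes and 4 M cell genes, 1 each was lower.

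Levels differed between Defa shares on both sides of the limit. In bins of Defa share among ENR+CD cells with Chga plus Chgb below 1%, the summed level of the other Paneth genes was 8598 CPM in the 92 cells below 0.25%, 17194 CPM at 2 to 3%, 21819 CPM at 3 to 4% and 153404 CPM in the 284 cells at 20% or more. Notum stood at 111 CPM below 0.25%, at 241 CPM at 0.5 to 1%, at 61.3 CPM at 3 to 4% and at 29.4 CPM at 20% or more. Ifitm1 stood at 1361 CPM in the lowest bin and 513 CPM in the highest. The median number of genes per cell went from 1383 to 625.5 over the same bins.

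**Figure D3:**
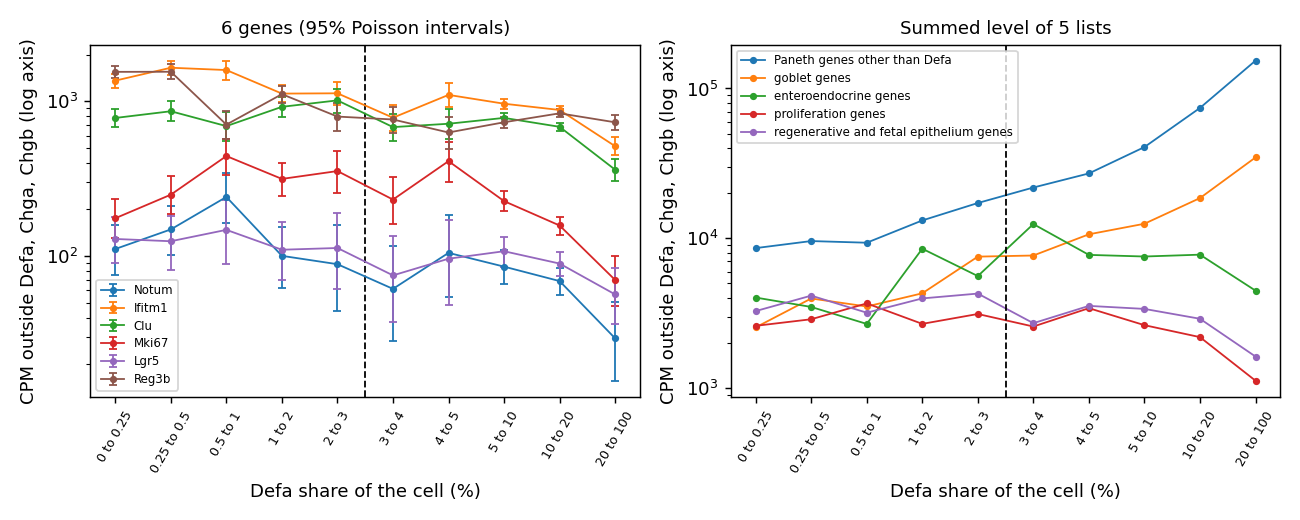
Levels in CPM (vertical log axes) of 6 genes and 5 lists in ENR+CD cells with Chga plus Chgb below 1%, by Defa share (horizontal axes, 3% limit dashed); error bars are 95% Poisson intervals. Notum stood at 111 CPM in the lowest bin and 29.4 CPM in the highest.

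The 415 cells were not uniform. Clustering without Defa genes, Chga and Chgb gave 8 clusters of 68, 68, 65, 64, 60, 49, 21 and 20 cells, and a coarser setting gave 5. Their leading genes define the clusters and are given as description. Cluster 5 (60 cells) was led by Cdh13, an atypical cadherin, Notum, Pirt, Ccl2 and Itm2a, and had a median Defa share of 0.339%. It held 91 of the 125 Notum UMIs (530 CPM) and 596 of the 1304 Ifitm1 UMIs (3474 CPM), while its 45 Ccl2 UMIs came from 4 cells. Kitl, the ligand of the Kit receptor, stood at 845 CPM there and Mki67 at 52.5 CPM. The cluster was formed from the same expression values, so its Notum and Ifitm1 counts are description. Cluster 5 held more UMIs of each of the 4 markers than any other cluster. Of the 806 Clu UMIs, 314 were in cluster 5 and 186 in cluster 3. The marker levels of the whole group therefore rested in part on these 60 cells.

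Cluster 1 (68 cells) was led by the mitotic genes Nuf2, Hmmr, Esco2, Sgol1 and Cenpe, with Mki67 at 771 CPM. Cluster 2 (68 cells) was led by B4galnt2, Vim, Dnajb1, Scaf8 and Sox17 and had the lowest median Defa share, 0.259%. Cluster 3 (65 cells) was led by Sprr1a, Tnfrsf11b, Anxa3, Med6 and Itgb6, and 4 of its 10 leading genes were on the regenerative and fetal list. Cluster 4 (64 cells) was led by Neb, Gm24245, the small nuclear RNA gene Rn7sk, Gm23935 and the mitochondrial ribosomal RNA gene mt-Rnr1, with a median mitochondrial share of 26.0% and 696 genes per cell.

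Cluster 6 (49 cells) was led by the hormone genes Gip, Cck and Tac1 with Reg4 and Mptx2, and also by alpha-defensin genes such as Gm14851. These genes lead only against the other low-defensin cells. Gm14851 stood at 650 CPM in cluster 6 and 5546 CPM in the other ENR+CD cells, and Gip at 385 and 606 CPM. Reg4 went the other way, at 2454 and 1219 CPM, as did Cck, at 1419 and 1347 CPM. Cluster 6 had 5 enteroendocrine markers among its 10 leading genes but mixed markers, and was left unnamed, as was cluster 7. Cluster 7 (21 cells) was led by Fabp1, Prap1, Zg16, Cyp2c29 and Cyp3a11. Cluster 8 (20 cells) was enteroendocrine-like, with 8 enteroendocrine markers among its 10 leading genes. It held 546 of 717 Gcg UMIs, from 7 of its cells, and 435 of 616 Ghrl UMIs, from 11, so few cells carried these values. By the selection, its cells met the Chga plus Chgb limit.

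Cluster 7 supplied several of the largest ratios of the whole group. It held 187 of 197 Zg16 UMIs, from 5 cells, 313 of 362 Gsta1 UMIs and 63 of 68 Apoa1 UMIs. Zg16, a goblet cell lectin, had a ratio of 5.38 (4.27 to 6.82), Apoa1, an apolipoprotein, of 6.70 (4.36 to 10.5) and Gsta1, a glutathione transferase, of 3.004. Without clusters 7 and 8 these ratios were 0.312, 0.562 and 0.464. The removal was made only on the low-defensin side, and cluster 7 was formed from the same expression values. A fall of these genes was therefore built in. Emp2, a membrane protein gene with 56 UMIs in 44 cells and at most 3 in a cell, kept a ratio of 2.53 without these clusters against 2.64 in all members.

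**Figure D4:**
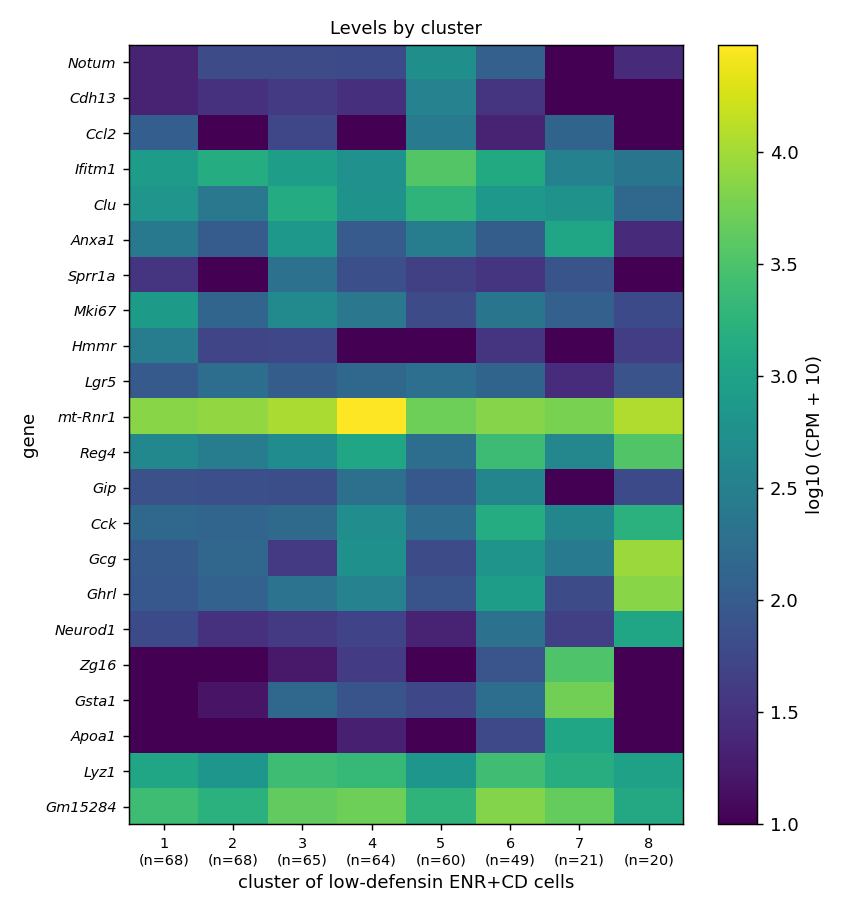
Level as log10 of CPM plus 10 (colour) of named genes (rows) in the 8 clusters of low-defensin ENR+CD cells (columns, with cell numbers). Notum and Ifitm1 are highest in cluster 5, Gcg and Ghrl in cluster 8, and Zg16, Gsta1 and Apoa1 in cluster 7.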

How the data were processed

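The authors sequenced Seq-Well libraries and deposited UMI counts per gene and cell, 1 table per library and 1 merged table; the submitters' processing notes name bcl2fastq, STAR, Seurat and mm10, without versions. The merged counts of 23271 genes were used as deposited; read counts and per-library counts served checks of depth and labels. Of 2506 merged ENR+CD cells, 46 had under 400 genes and 77 had 8000 or more UMIs. Counts were summed over cells, and levels were taken outside Defa genes, Chga and Chgb. Intervals are 95% exact Poisson for levels and exact binomial for ratios and shares, and ignore spread between cells. No doublet caller was run. Clusters came from 1000 variable genes, 12 principal components, 15 neighbours and Leiden clustering (leidenalg 0.10.2, scipy 1.17.1, resolution 1.35). The calling rule was tested on simulated counts. The members and gene lists were chosen with earlier results of these data known. Genes named were the 4 markers, the 12 largest ratios each way with at least 100 UMIs, up to 4 most counted genes of each of 24 lists and the 5 leading genes of each cluster, of which a part is printed. Gene positions are from GENCODE (GRCm38), which held 93.5% of the symbols. Alternatives changed the limits, totals, weights, depth and comparison cells. Reads per UMI were 20.9 in the low-defensin cells and 17.6 in the others.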

Additional observations from a re-analysis of the deposited data

Results flagged for a closer look

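Zg16 was higher in low-defensin than in other cells of ENR+CD (ratio 5.38) but lower under the same limits in ENR (ratio 0.266, 47 UMIs against 60). The difference between the libraries was not tested, and 187 of the 197 ENR+CD UMIs came from cluster 7.

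Barcodes of the ENR+CD table with at least 500 and fewer than 1000 UMIs took no part in the comparisons. Of 2823 such barcodes 520 met the defensin limits, which is 18.4%. Zg16 had a ratio of 5.12 and Clca3 of 2.66 between low-defensin and other barcodes of this depth. Of the 52 named genes called among kept cells, 26 were called the same way there and 0 the other way. A ratio on the same side of 1 was found for 47. The only higher calls among the 26 were Zg16 and Clca3. The rest were lower calls, such as Lyz1 and the alpha-defensin gene Gm15284. These barcodes were split by the same Defa, Chga and Chgb limits, so lower calls of Paneth and alpha-defensin genes followed from the selection. The agreement is therefore description and not a separate check. The counts cover named genes only. Other genes called higher among kept cells were not called there, such as Ccl2 (ratio 1.91, 0.964 to 3.64) and Gsta1 (1.56). Cyp2c29 was at 0.464, from 5 UMIs against 44. Notum was not higher there, at 72.7 CPM against 73.3 CPM (ratio 0.993, 0.620 to 1.54, from 26 and 107 UMIs).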

How the results depend on the processing

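No paired analysis was possible because each condition was 1 library with no replicate numbers to share. Intervals cover counting error only and not spread between cells, libraries or donors. Against 146 higher genes, the count was 363 with Defa genes, Chga and Chgb kept in the totals, 96 without the other Paneth and enteroendocrine genes, 36 with at least 100 UMIs in the pair and 310 against cells with Chga plus Chgb of at least 1%. Against 155 lower genes, it was 97 with at least 100 UMIs and 460 against cells with Chga plus Chgb of at least 1%. Among alternatives chosen after seeing the data, higher genes were 94 without Gm and AY alpha-defensins in the totals and 57 without the highest member cell of each gene, lower genes were 256 without the clusters of 21 and 20 cells, and resolution 0.5 gave 5 clusters in place of 8. Other settings kept both counts within 1.5 times, but with different genes: at a Defa limit of 5%, 133 were higher and 71 of them were among the 146. The share of low-defensin cells, 17.4%, was 14.4% at a Defa limit of 2%, 23.9% at 5%, 15.7% at a Chga plus Chgb limit of 0.5%, 15.7% below 4000 UMIs and 14.8% with Gm and AY alpha-defensins counted.

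Against cells with Chga plus Chgb of at least 1% only, ratios turned to 1.05 for Atoh1, 2.36 for Ccl6, 1.33 for Guca2a, 1.35 for Mmp7, 1.23 for Mptx2, 2.27 for Muc2 and 4.20 for Spdef. Without the clusters of 21 and 20 cells they turned to 0.562 for Apoa1, 0.352 for Clca3, 0.155 for Cyp2c29, 0.135 for Cyp3a11, 0.464 for Gsta1 and 0.312 for Zg16, genes whose UMIs lay mostly in the cluster of 21 cells. These clusters were removed only on the low-defensin side, so a fall of such genes was built in. Without its highest cell Clca3 was at 0.701. The Notum ratio was 1.67 to 3.64 over all alternatives.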
